A study of Mus musculus with 3 samples.

Results

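The genes described here encode the proteasome, the protease that breaks down ubiquitin-tagged proteins. They were chosen by name: probe sets assigned to a single gene whose symbol is Psma, Psmb, Psmc or Psmd followed by a digit, without the inducible subunits Psmb8, Psmb9 and Psmb10. The rule found 37 of the 19938 genes on the array, read by 43 probe sets. One of them, Psmc3ip, is named for binding an ATPase subunit but is a recombination factor and no subunit. It was at 7.49 in Ctrl and 6.93 in both other columns and is left out of the counts below, which cover 36 genes for subunits and assembly chaperones.

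Expression was measured in CT26, a mouse colon carcinoma line, stably transfected with a vector that carried puromycin resistance and GFP. The vector held a control microRNA in miR-Ctrl (here Ctrl) or the microRNA cluster that names the other groups, at medium levels in miR-17~92Med (Med) and at high levels in miR-17~92Hi (Hi). All cells had been selected with puromycin, enriched for GFP by sorting and cloned by dilution, so that a line stands for a clone. The design text names 3 subclones per group, but each group has 1 column of values, and the sources used here do not say whether it is a subclone, pooled RNA or a mean. No difference below therefore has a measured error or a test, and a gene called higher or lower is so between single columns.

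The alpha and beta rings stack into a barrel, the core particle, whose cutting sites lie inside and belong to Psmb5, Psmb6 and Psmb7. A regulatory particle caps the barrel. Its base holds a ring of ATPases (Psmc genes) that unfold the substrate, and its lid removes the ubiquitin chain. Cells that lose proteasome activity are known to raise most subunit genes together through the transcription factor Nfe2l1.

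The Ctrl column stood apart from the other columns. Across probe sets Med and Hi correlated at r = 0.992, while Ctrl correlated with Med at 0.787 and with Hi at 0.795. The 4 probe sets named for mitochondrially encoded mRNAs lay between 4.98 and 6.16 in Ctrl, between 12.29 and 13.47 in Med and between 12.08 and 13.36 in Hi. Immune markers (0 of 5 matched genes) and endothelial markers (0 of 4) did not reach the expression filter used below. Of 10 epithelial and intestinal markers 4 reached it, and 8 were lower than Ctrl in each column. Krt8 was lower (-1.64 in Med and -1.61 in Hi), as was Cdx1 (-1.71 and -1.50), while Krt18 was higher (3.44 and 4.31). Epcam (6.15 in Ctrl, 5.14 in Med and Hi) and Cdh1 (6.63 in Ctrl, 6.26 in Med and Hi) did not reach the filter. Of 6 fibroblast markers 4 reached it, and 5 were lower than Ctrl in each column, among them Col1a1 (-1.33 in Med and -1.19 in Hi) and Col1a2 (-1.31 and -1.23). Pdgfra was higher (2.53 and 3.01). The part of these column differences in the results below was not tested.

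The promoters of the genes are shown first, because Nfe2l1 is known to act on subunit genes through antioxidant response elements. RefSeq's promoter table (build GRCm38.p6) held 29 of the 36 genes. The 250 bases before each start were searched on both strands for the element TGACNNNGC and for CCAAT, with each motif counted on its own. The element was found in 5 of the 29 genes (17.2%) and in 11.5% of 27025 genes with a promoter in the table. CCAAT was found in 12 of the 29 (41.4%) and in 37.5% of all genes. A match is a description of letters and not a bound site. The windows with TGACNNNGC, or its reverse complement on the printed strand, follow with the match in capitals, each read 5′ to 3′ on the gene's strand. They lie at chr14:54618019-54618057 (minus strand) for Psmb5, chr11:70525333-70525356 (plus) for Psmb6, chr14:45329582-45329620 (plus) for Psmc6, chr11:107479278-107479304 (plus) for Psmd12 and chr5:123228144-123228182 (plus) for Psmd9.
Psmb5: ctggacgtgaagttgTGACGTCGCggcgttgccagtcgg
Psmb6: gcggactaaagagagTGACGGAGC
Psmc6: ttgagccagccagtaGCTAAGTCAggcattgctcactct
Psmd12: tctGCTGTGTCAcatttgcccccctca
Psmd9: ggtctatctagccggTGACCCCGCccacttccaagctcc

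Among the 15 genes with a promoter that were at least 2-fold higher in Hi than in Ctrl, 4 held the element, as did 1 of the other 14. CCAAT stood in 5 of those 15 and in 7 of the other 14. The 2-fold calls are those of the deposited values. The same split over all genes with a promoter was not computed, and no link of either motif with a difference was tested. Next come the full 250 bases of Psma3, which had the largest difference from Ctrl, of Psmb5, which had the largest in the beta ring, and of Psma1, whose value was identical in every column. Capitals mark either motif. Psma3 is read from chr12:70974373-70974622 (plus strand), Psmb5 from chr14:54617996-54618245 (minus) and Psma1 from chr7:114276117-114276366 (minus).
Psma3: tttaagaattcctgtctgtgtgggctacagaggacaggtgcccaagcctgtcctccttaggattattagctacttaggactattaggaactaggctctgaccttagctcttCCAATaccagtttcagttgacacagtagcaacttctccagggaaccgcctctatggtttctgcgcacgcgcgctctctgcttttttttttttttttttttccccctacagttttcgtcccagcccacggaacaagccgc
Psmb5: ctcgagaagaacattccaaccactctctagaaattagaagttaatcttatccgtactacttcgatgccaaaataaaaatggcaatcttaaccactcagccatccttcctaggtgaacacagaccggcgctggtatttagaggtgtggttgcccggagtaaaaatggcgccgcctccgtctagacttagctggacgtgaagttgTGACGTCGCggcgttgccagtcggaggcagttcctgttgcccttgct
Psma1: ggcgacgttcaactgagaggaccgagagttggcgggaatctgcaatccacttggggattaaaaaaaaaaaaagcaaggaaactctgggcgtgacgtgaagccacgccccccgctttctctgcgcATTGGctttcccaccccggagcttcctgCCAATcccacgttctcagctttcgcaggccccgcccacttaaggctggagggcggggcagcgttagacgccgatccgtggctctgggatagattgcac
The promoter of Psma1 held 2 CCAAT matches, 1 on each strand, and that of Psma3 held 1.

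In the deposited values the proteasome genes past the expression filter were higher than Ctrl or close to it in both Med and Hi. None of them was 2-fold lower. The filter asked for a mean level across the columns at or above 7.13 (log2), the median of all genes. It kept 34 of the 36 genes, of which Psma3 and Psmd5 lay below that level in Ctrl. No detection call was used here, so a level under 7.13 is not shown to be above background. In Med, 16 of the 34 were at least 2-fold higher than in Ctrl (47.1%, against 34.9% of the 9969 genes past the filter). In Hi, 18 were (52.9%, against 33.5%). Genes 2-fold lower made up 8.7% of all genes in Med and 8.4% in Hi, and 0 of the 34 in each. In bulk RNA, fewer cells that carry an mRNA and less of it per cell cannot be told apart. The median difference of the 34 was 0.99 in Med and 1.15 in Hi, beside 0.42 and 0.39 over all genes past the filter.

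Part of that distance moved with level. In the upper quartile of mean level, which held 33 of the 36 genes, 49.2% of all genes were 2-fold higher in Med and 47.9% in Hi, beside 48.5% and 54.5% of the proteasome genes. The median difference there was 1.17 for proteasome genes in Hi, beside 0.93 over all genes. Set against genes of such levels, the share of proteasome genes 2-fold higher was near the background. Genes 2-fold lower made up 2.53% of that quartile in each comparison. The quartile is set by the same mean, so it too favours genes high in Med and Hi. The difference also depends on how the columns are scaled. Centring each column on its median over the genes past the filter shifts every difference from Ctrl by -0.60 for Med and -0.54 for Hi. With it, 12 of the 34 were past 2-fold in each column with 0 lower. The share of all genes past 2-fold under this centring is not given here, so that count is not set against a background. Centring on the median of all probe sets shifts the differences from Ctrl by 0.30 and 0.29. It gave 20 in Med (58.8%, against 42.1% of all genes) and 21 in Hi (61.8%, against 40.6%). Quantile normalization put 9 genes 2-fold above Ctrl and 6 below it in Med, and 9 above and 5 below in Hi. These are 26.5% above and 17.6% below in Med, and 26.5% and 14.7% in Hi. Over all genes past the filter 24.9% were 2-fold above and 18.8% 2-fold below in Med, and 24.6% and 17.9% in Hi. The proteasome counts thus lay near the background under this scaling. The same 9 genes were 2-fold higher under all 4 scalings in both columns: Psma3, Psma4, Psmb3, Psmb5, Psmc6, Psmd1, Psmd5, Psmd10 and Psmd12. Centring on all probe sets could remove no gene from this list, since it raised every difference from Ctrl. Nor could the deposited values remove a gene that passed with centring on genes past the filter, since that centring lowered every difference. The list holds the same 9 genes that quantile normalization alone put 2-fold above Ctrl, a share near the background. Psma3 and Psmd5 were under the filter level in Ctrl. The share of all genes that were 2-fold higher under all 4 scalings was not computed.

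**Figure D1:**
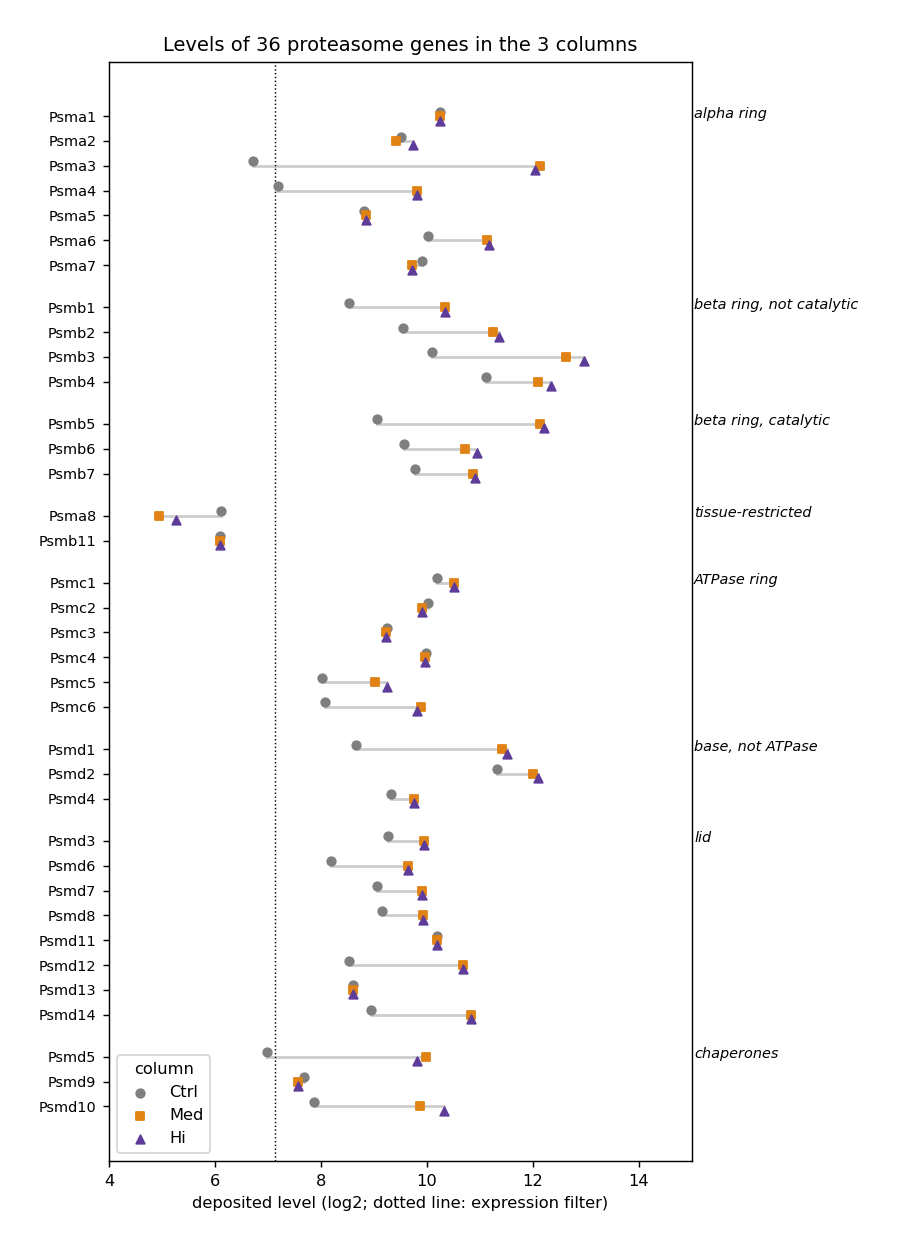
Deposited log2 level of each of 36 proteasome genes (rows, grouped by role) in Ctrl (grey circles), Med (orange squares) and Hi (purple triangles), with 1 value per column and no error. Psma3 and Psma4 show wide gaps between Ctrl and the other columns, while Psma1, Psmd11, Psmd13 and Psmb11 have identical values; levels cannot be compared between genes, since each has its own probes.

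The beta ring was higher as a whole in the deposited values. Counts for this and the parts below stand beside 34.9% of all genes past the filter 2-fold higher in Med and 33.5% in Hi. In the upper quartile of level the shares were 49.2% and 47.9%. All 7 beta ring subunits were higher than Ctrl in both columns, 6 of them 2-fold in Med and 7 in Hi, with medians of 1.69 and 1.81. These signs held under both centrings, while quantile normalization put Psmb4 and Psmb7 below Ctrl in both columns and left 2 of the 7, Psmb3 and Psmb5, past 2-fold. That count stands beside 24.9% of all genes past the filter in Med and 24.6% in Hi under the same scaling. Psmb5, which carries the chymotrypsin-like site, was at 9.05 in Ctrl, at 12.13 in Med and at 12.22 in Hi. That is 8.44-fold over Ctrl in Med and 8.98-fold in Hi. Psmb6, with the caspase-like site, was at 9.57 in Ctrl, at 10.71 in Med and at 10.95 in Hi, or 2.21-fold over Ctrl in Med and 2.60-fold in Hi. Psmb7, with the trypsin-like site, was at 9.77, 10.87 and 10.91, or 2.14-fold and 2.20-fold. Each of these catalytic genes was lowest in Ctrl and highest in Hi.

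The other beta subunits build the ring without cutting. Psmb3 was at 10.09 in Ctrl, at 12.63 in Med and at 12.97 in Hi, a difference from Ctrl of 2.53 in Med and 2.88 in Hi. Psmb1 was at 8.53, 10.34 and 10.34, and Psmb2 was at 9.55, 11.24 and 11.36. Both were about equally far above Ctrl in Hi, by 1.81. Psmb4 was at 11.12 in Ctrl, at 12.09 in Med and at 12.34 in Hi, just under 2-fold in Med (0.97) and past it in Hi (1.22).

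The alpha ring was uneven. It forms the gate of the barrel. In both columns 3 of its 7 genes were 2-fold higher. That count lay near the share of all genes past the filter (34.9% in Med and 33.5% in Hi). The other 4 genes differed from Ctrl by 0.22 or less, so that the ring's median was 0.04 for Med and 0.22 for Hi. Psma3 was at 6.71 in Ctrl, at 12.15 in Med and at 12.04 in Hi. The sizes of its differences, 5.43 in Med and 5.33 in Hi, rest on a Ctrl value under the filter level. Psma4 was at 7.19 in Ctrl and 9.82 in both other columns, and Psma6 was at 10.01, 11.13 and 11.18. Psma1 had the value 10.25 in every column. Psma7 was at 9.90 in Ctrl and 9.72 in both Med and Hi, and Psma5 was at 8.82, 8.86 and 8.84. Psma2 was at 9.51 in Ctrl, at 9.41 in Med and at 9.74 in Hi, and so lay below Ctrl in Med and above it in Hi. Ring partners that stand side by side in the complex in equal number thus had differences in Hi from -0.17 for Psma7 to 5.33 for Psma3. With quantile normalization 5 of the 7 alpha genes were below Ctrl in each column, and the gap within the ring stayed wide (-1.25 for Psma7 and 5.11 for Psma3 in Hi). The median difference of all genes past the filter was then negative too (-0.094 in Med and -0.080 in Hi).

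The core subunits known from restricted tissues did not reach the filter. Psma8, a testis form of an alpha subunit, was at 6.10 in Ctrl, at 4.95 in Med and at 5.26 in Hi. The thymus form Psmb11 was at 6.09 in every column. Psma8 was the only one of the 36 genes 2-fold lower than Ctrl, in Med (-1.16).

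In the deposited values, the ATPase ring lay closer to Ctrl by its median than the rest of the base or the lid. Of its 6 genes 1 was 2-fold higher in Med and 2 in Hi, and the ring's median was 0.16 in each. The count in Hi lay near the share of all genes past the filter (33.5%, and 34.9% in Med). Psmc6 was at 8.07 in Ctrl, at 9.90 in Med and at 9.81 in Hi, and Psmc5 was at 8.02, 9.02 and 9.24, just under 2-fold in Med. Psmc2 (10.02 in Ctrl, 9.92 in both Med and Hi), Psmc3 (9.24 and 9.23) and Psmc4 (9.98 and 9.97) differed from Ctrl by 0.10 or less. Psmc1 was at 10.19 in Ctrl and 10.51 in both other columns. Under quantile normalization 4 of the 6 were below Ctrl in each column, and the ring was then farther from Ctrl than the lid (medians in Hi of -0.89 and -0.12). It was also farther with centring on genes past the filter (-0.38 and 0.28). Over all genes past the filter, quantile normalization gave negative medians as well (-0.094 in Med and -0.080 in Hi).

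Of the base subunits that are not ATPases, Psmd1, a scaffold that holds a ubiquitin receptor, was the one past 2-fold. It was at 8.67 in Ctrl, at 11.41 in Med and at 11.51 in Hi, or 6.70-fold over Ctrl in Med and 7.18-fold in Hi. Psmd2, the scaffold where shuttling ubiquitin receptors dock, was at 11.32 in Ctrl and above it by 0.68 in Med and 0.78 in Hi. The ubiquitin receptor Psmd4 was at 9.32 in Ctrl and 9.77 in both Med and Hi.

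The lid had 3 of 8 genes 2-fold higher in each column and a median of 0.82 in both. The count lay near the share of all genes past the filter (34.9% in Med and 33.5% in Hi), whose medians were 0.42 and 0.39. Psmd12, a structural lid subunit, was at 8.52 in Ctrl and 10.69 in Med and Hi. Psmd14, the deubiquitinating enzyme of the lid, was at 8.95 in Ctrl, at 10.84 in Med and at 10.83 in Hi, while its inactive partner Psmd7 was at 9.05 in Ctrl and 9.90 in both Med and Hi (0.85). Psmd6 was at 8.19 in Ctrl and 9.64 in the other columns. The structural subunits Psmd3 and Psmd8 were higher by 0.68 and 0.79 in both columns, and Psmd11 (10.19) and Psmd13 (8.61) had 1 value in all columns. With quantile normalization 5 of the 8 lid genes were below Ctrl in each column. Over all genes past the filter the median difference was then negative too (-0.094 in Med and -0.080 in Hi).

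The chaperones that assemble the base showed wide gaps for 2 of 3 genes. Psmd5 was at 6.98 in Ctrl, at 9.99 in Med and at 9.81 in Hi. Psmd10, known as gankyrin and as an oncoprotein in liver, was at 7.87, 9.86 and 10.33. Psmd9 was at 7.68 in Ctrl and 7.56 in both Med and Hi. Psmd5 and Psmd10 were 2-fold higher under all 4 scalings, Psmd5 from a Ctrl value under the filter level. Both differ from the subunits in that they leave the finished particle.

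**Figure D2:**
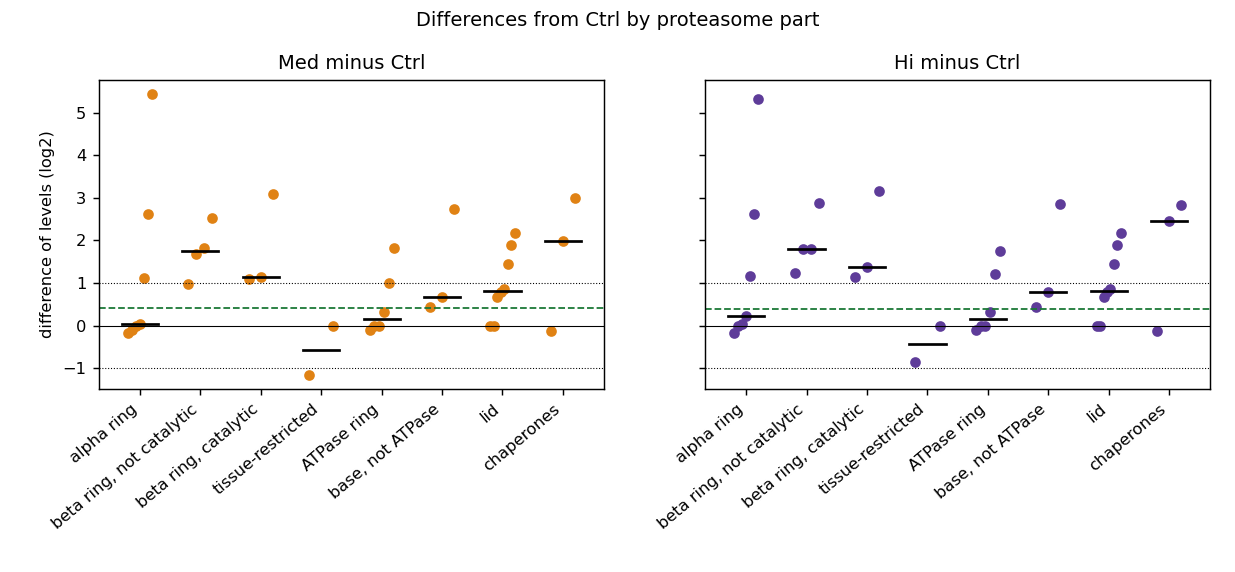
Difference of log2 levels from Ctrl for each of 36 proteasome genes by role, Med minus Ctrl on the left and Hi minus Ctrl on the right; black bars are group medians, dotted lines mark 2-fold and the green dashed line is the median of all 9969 genes past the filter (0.42 and 0.39). All 7 beta ring genes lie above that line, while 4 alpha ring genes lie near or below 0 in Med.

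Which groups stood above Ctrl depended on the scaling of the columns. Of the 34 genes past the filter, 15 were higher than Ctrl in each column under all 4 scalings tried. They included 5 beta ring genes (Psmb1, Psmb2, Psmb3, Psmb5 and Psmb6), 2 alpha ring genes (Psma3 and Psma4) and 2 ATPase genes (Psmc5 and Psmc6). A gene higher with centring on genes past the filter is also higher as deposited and with centring on all probe sets, which give larger differences from Ctrl. The share of all genes that were higher under all 4 scalings was not computed. The beta ring median in Hi was 2.09 with all-probe-set centring, 1.81 as deposited, 1.27 with centring on genes past the filter and 0.67 with quantile normalization. Alpha ring medians in the same order were 0.51, 0.22, -0.32 and -0.70. The beta ring median lay above the alpha ring median under each of these. Both centrings shift all genes alike and could not change that order, so quantile normalization alone could have changed it.

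**Figure D3:**
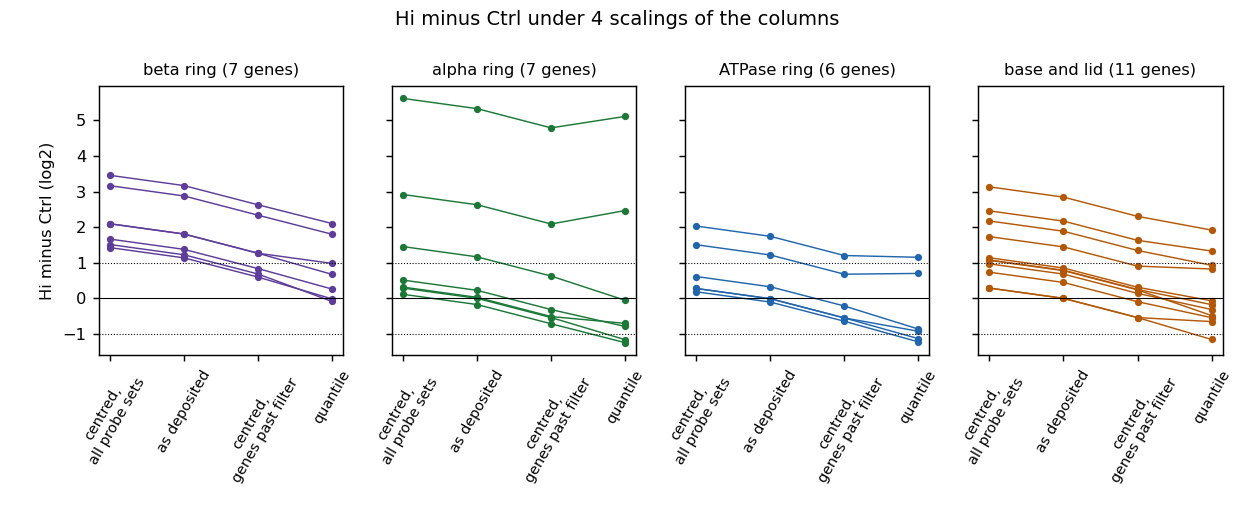
Hi minus Ctrl (log2) for each gene of the beta ring, alpha ring, ATPase ring, and base with lid, under 4 scalings of the columns on the horizontal axis; each line is 1 gene and dotted lines mark 2-fold. Quantile normalization brings most genes of the alpha ring, ATPase ring, base and lid below 0, while 5 of 7 beta ring genes stay above it.

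For 5 genes several probe sets gave a reading, and these did not always match. The 3 probe sets of Psma3 were at 6.76, 6.68 and 6.69 in Ctrl, at 12.10, 12.08 and 12.26 in Med and at 12.07, 11.97 and 12.08 in Hi, so that each had the same wide gap. For Psmb3 the probe sets differed from Ctrl by 1.72 and 4.04 in Hi. Those of Psma5 went opposite ways, with differences of 0.69 and -0.64 in Hi. One probe set of Psmd2 was at 12.10 in Ctrl, at 12.11 in Med and at 12.12 in Hi while the other was at 10.53, 11.88 and 12.07, and 1 of the 2 of Psmc1 was identical in all columns at 10.49. Which loci each probe set reads was not examined, so the averages of Psma5, Psmb3, Psmc1 and Psmd2 are uncertain. Taking the probe set with the highest mean in place of the average left the counts at 16 and 18.

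**Figure D4:**
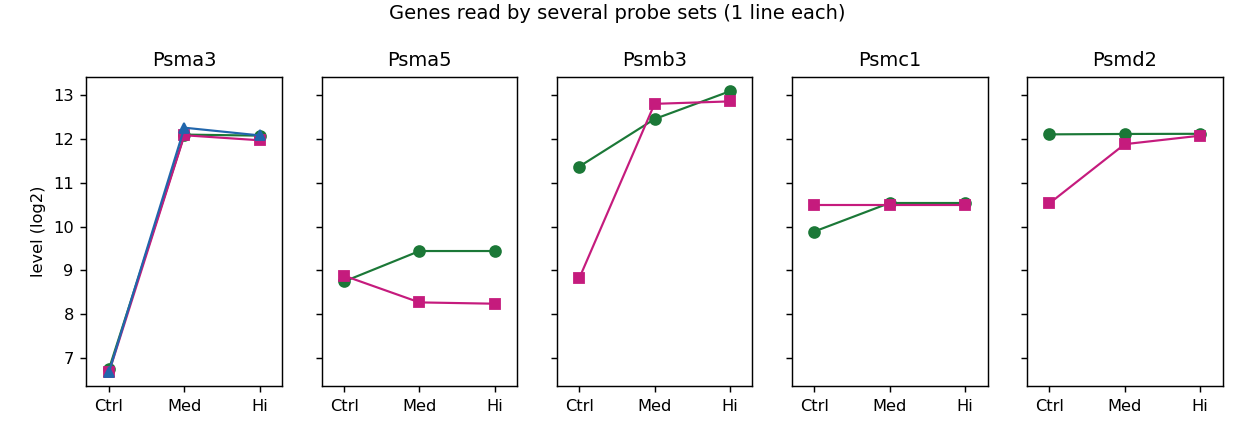
Log2 level in Ctrl, Med and Hi for each probe set of the 5 proteasome genes that had more than 1; each line is a probe set. The 3 lines of Psma3 run together, whereas those of Psma5 part in opposite directions and those of Psmd2 meet only in Med and Hi.

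The columns of the high and the medium cluster level can be set against each other without Ctrl. No proteasome gene was 2-fold apart between them, where 0.682% of all genes past the filter were 2-fold higher and 0.863% lower in Hi. Of the 34 genes, 12 were higher in Hi at any size (35.3%, against 22.8% of all genes past the filter), 6 were lower (17.6%, against 31.3%) and 16 identical to the last deposited digit (47.1%, against 45.9%). The beta ring held 6 of the 12 higher genes. With the columns centred on genes past the filter, or quantile normalized, identical values separate and 31 of 34 genes were higher in Hi, beside 75.5% and 68.3% of all genes. Centring on all probe sets gave the opposite majority, with 12 of the 34 higher in Hi and 22 lower, beside 78.3% of all genes lower.

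Psmd10 had the largest difference, at 10.33 in Hi and 9.86 in Med, or 1.38-fold. Its difference of 0.46 was reached by 250 of the 9969 genes past the filter, itself included. Psmb3 was at 12.97 in Hi and 12.63 in Med (0.34, a difference reached by 379 genes), with 0.63 for 1 of its probe sets and 0.06 for the other. Psma2 was at 9.74 in Hi and 9.41 in Med (0.32). Psmb4 (0.25), Psmb6 (0.23) and Psmc5 (0.22) followed, and Psmb2, Psmd1, Psmd2 and Psmb5 were higher by 0.09 to 0.12. The farthest lower was Psmd5, at 9.81 in Hi and 9.99 in Med (-0.18), then Psma3 (-0.10) and Psmc6 (-0.09). The chaperones Psmd10 and Psmd5 thus lay at opposite ends. In the lid, 7 of 8 genes were identical between Hi and Med, as were 4 of the 6 ATPase genes, while 0 of the 7 beta ring genes were.

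**Figure D5:**
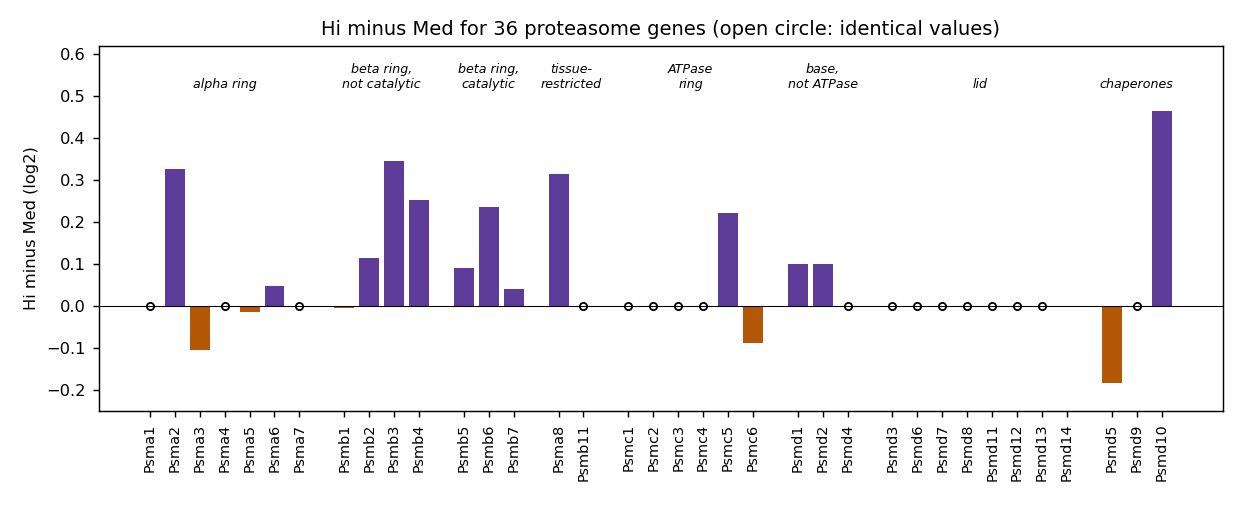
Hi minus Med (log2) for 36 proteasome genes by role; bars above 0 are higher in Hi, open circles are genes whose values are identical, and the differences of Psmb1 and Psmd14 are too small for a visible bar. Beta ring genes are mostly above 0 and 7 of 8 lid genes sit at exactly 0.

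Identical values were also seen across all columns. Psma1, Psmd11, Psmd13 and Psmb11 had the same value in Ctrl, Med and Hi, 3 of them among the 34 genes past the filter (10.5% of all genes past the filter were identical in all columns). The sources used here do not say why separate columns hold identical values, so a difference of exactly 0 is no measured equality. For the 18 proteasome genes past 2-fold above Ctrl in Hi, Med lay between Ctrl and Hi in 10 (55.6%), equalled Hi in 3 (16.7%) and exceeded it in 5 (27.8%). Over the 3335 such genes among all genes past the filter the shares were 28.2%, 22.9% and 48.4%. These comparisons share the Ctrl and Hi columns with those above.

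The inducible catalytic subunits replace the standard ones in cells exposed to interferon. In the deposited values they went the same way as their partners in 2 of 3 pairs, and by other amounts. Psmb8, which takes the place of Psmb5, was at 8.17 in Ctrl and 9.61 in Med and Hi, 1.44 above Ctrl in each, where Psmb5 was above by 3.08 in Med and 3.17 in Hi. Psmb9, the partner of Psmb6, was at 9.19 in Ctrl, at 8.71 in Med and at 8.61 in Hi, lower than Ctrl while Psmb6 was higher. Psmb10, the partner of Psmb7, was at 8.11, 9.65 and 10.15, a difference of 2.04 in Hi beside 1.14 for Psmb7. Between Hi and Med, Psmb10 was 0.50 higher in Hi. The activator genes Psme1 and Psme2, which cap the barrel in place of the regulatory particle, were at 9.20, 11.32 and 11.54, and at 8.85 in Ctrl and 10.52 in both Med and Hi. Under quantile normalization Psmb7 was below Ctrl (-0.098 in Med and -0.015 in Hi). Of the 5 inducible and activator genes 4 were then above Ctrl in each column. Past 2-fold were 0 in Med and 2 in Hi, beside 24.9% and 24.6% of all genes past the filter, and 1 was 2-fold lower in each.

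Genes around the proteasome were taken from lists, whose counts stand beside 34.9% of all genes past the filter 2-fold higher in Med and 33.5% in Hi, or 49.2% and 47.9% in the upper quartile of level. Of the assembly genes of the core, 5 of 6 were matched, and 3 of these were 2-fold higher than Ctrl in each column. They were the maturation factor Pomp (at 6.58 in Ctrl, at 8.79 in Med and at 8.83 in Hi), Psmg2 (7.14, 9.12 and 9.17) and Psmg1 (7.04, 8.26 and 8.29). Of 10 matched ubiquitin receptors and proteasome-bound enzymes, 5 were 2-fold higher in each, among them the deubiquitinases Usp14 (7.60, 10.50 and 10.09) and Uchl5 (6.84, 8.92 and 8.67), the ligase Ube3c (8.51, 10.37 and 10.28) and the shuttle receptor Ubqln1 (8.31 in Ctrl, 10.03 in both Med and Hi). Between Hi and Med, 1 gene of this list was higher in Hi and 5 were lower, Usp14 by -0.41. In Ctrl, Pomp, Psmg1 and Uchl5 were under the filter level. Their differences from Ctrl, and their places in the counts, thus rest on values not shown to be above background. The capping activators and inhibitor Psme3, Psme4 and Psmf1 were not 2-fold apart in any comparison, with Psme4 at 8.96 in Ctrl and 9.58 in both Med and Hi and Psmf1 at 8.92, 9.17 and 9.15.

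Of the p97 segregase list, which pulls tagged proteins out of complexes, 2 of 6 genes were 2-fold higher in each column, close to the share of all genes past the filter: Ufd1 (6.67, 9.63 and 9.56) and Nploc4 (9.08 in Ctrl, 11.38 in both Med and Hi). The ATPase Vcp itself was at 10.00 in Ctrl and 10.22 in Med and Hi. Of the ubiquitin genes and activating enzymes, 1 of 6 was matched to a single-gene probe set, the enzyme Uba6 (6.29, 9.79 and 9.20). The Ctrl values of Ufd1 and Uba6 were under the filter level and are not shown to be above background. Among known regulators of proteasome genes, Nfe2l1 was at 9.48 in Ctrl and 10.88 in Med and Hi, Nfe2l2 was at 7.86, 11.91 and 11.78, and Ngly1, which trims Nfe2l1, was at 7.04 in Ctrl and 6.99 in both Med and Hi. Nfe2l1 had the same value in Hi and Med, as did 45.9% of all genes past the filter.

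A pair of other large complexes gives a setting for these values. In the COP9 signalosome, whose subunits resemble the lid, 5 of 9 genes were 2-fold higher in each column and 2 were identical in all columns, and the median difference was 1.10 for Med and 1.01 for Hi. In the upper quartile of level 49.2% of all genes were 2-fold higher in Med and 47.9% in Hi, so that this count lay near the background. Its enzyme Cops5, a relative of Psmd14, was at 6.35 in Ctrl and 9.28 in both Med and Hi, and Cops4 was at 7.49, 10.66 and 10.72. Cops2 was higher than Ctrl by 1.73 in Hi, and Gps1 by 1.22. In the CCT chaperonin, which folds actin and tubulin, 7 of 8 genes passed 2-fold in each (medians 2.50 for Med and 2.52 for Hi), led by Cct6a (6.77, 11.25 and 10.96), Tcp1 (7.90, 12.03 and 11.73) and Cct8 (6.11 in Ctrl, 9.84 in both Med and Hi) and Cct2 (9.01 in Ctrl, 11.65 in both Med and Hi), while Cct3 lay below Ctrl (11.70, 11.51 and 11.63). The beta ring, at 1.69 in Med and 1.81 in Hi, lay between these medians, and the alpha and ATPase rings lay below both. The difference between these complexes was not tested. Cops5, Cct6a and Cct8 were under the filter level in Ctrl. The sizes of their differences, and their places in the counts, rest on Ctrl values not shown to be above background. Quantile normalization changed these lists as well. With it, 4 of the 9 COP9 genes were above Ctrl in Hi and 5 below, with 2 still 2-fold higher, and 6 of the 8 CCT genes were 2-fold higher. Under this scaling 24.6% of all genes past the filter were 2-fold higher in Hi, and the median difference of those genes was -0.080. The COP9 count thus lay near the background. The share of all genes above or below Ctrl at any size is not given here. Of the ubiquitin receptors and bound enzymes 6 were above Ctrl and 4 below, of the p97 list 2 above and 4 below, and of the core assembly genes 3 above and 2 below.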

How the data were processed

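Expression was measured on an Affymetrix array from 100 ng of total RNA per sample, amplified with random primers, per the labels' protocols. The deposited table has 1 column for each of 3 groups over 35556 probe sets. Per the submitters' processing notes, the authors used Affymetrix Expression Console and GCRMA, with no role or version given. The deposited values were read as log2 because they run between 2.13 and 14.85, as no source used here names the base. Precision is limited by the single column per group.

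Probe sets of 1 gene (21789, of which 21698 were matched to RefSeq by gene number) were averaged per gene. Probe sets of several genes (1621) or none (12146) were not used. Differences of log2 values, counts past 2-fold and medians were computed with Python 3.11.15, pandas 2.3.3 and numpy 2.4.6, and tested on simulated data. Filter, scaling, probe set choice and the 2-fold limit (1.5-fold) were varied. Every gene of the rule is named. Of the related lists, those 2-fold apart from Ctrl were named first, up to 4 per list with the largest difference in Hi, or up to 2 where none was. Vcp, Ngly1, Cct3 and the markers named were picked with their values in view. The members and lists were chosen with earlier results of these data known.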

Additional observations from a re-analysis of the deposited data

Results flagged for a closer look

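Psma2 was the one proteasome gene that lay on opposite sides of Ctrl, at -0.10 in Med and 0.22 in Hi. That difference was not tested, since each column stands for a single sample. The gene was below Ctrl in both columns with quantile normalization (-1.12 in Med and -0.79 in Hi), and above it in both with columns centred on all probe sets (0.20 and 0.51).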

How the results depend on the processing

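No paired analysis was possible because each group has 1 column. Of 78 recomputed counts and medians of the proteasome genes, 60 were called kept. A count was kept at up to a 1.5-fold change, and a median when it did not turn its sign or cross 2-fold. Counts that were 0 both times, as for 2-fold differences between Hi and Med, were among the 60. Quantile normalization moved the most, and both medians against Ctrl turned their sign. It gave 9 genes 2-fold higher in Med than in Ctrl and 6 lower, with a median of -0.12, and 9 higher and 5 lower in Hi, with a median of -0.062. Psma6 (-0.134 in Med, -0.055 in Hi), Psmb7 (-0.098 and -0.015) and Psmb4 (-0.088 in Hi) went from 2-fold higher to below Ctrl. In Hi against Med, where 16 values were identical, it left 0 identical, 31 higher and 3 lower. Centring on genes past the filter, chosen after the data were seen, gave a median of 0.61 for Hi against Ctrl and, for Hi against Med, again 31 higher, 3 lower and 0 identical. Centring on all probe sets gave a Med median of 1.28 and, for Hi against Med, 22 lower and 0 identical. Without the filter the Hi median was 0.99 and 1 gene was 2-fold lower in Med. Of 32 subunit genes not identical to Ctrl, quantile normalization turned 10 in Med and 11 in Hi to below it, Psmb4 (-0.395 in Med) among them. Centring on genes past the filter turned 3 and 4 to below Ctrl (Psma5, Psmc1 and Psmd4 in each column and Psma2 in Hi). Centring on all probe sets turned 6 and 5 to above it. The cause was not tested.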
